A study of Mus musculus with 8 samples.

Results

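The annexins are a family of proteins that bind acidic phospholipids of cell membranes when calcium rises, and their mRNAs were followed here in kidneys that had lost Xpr1, the gene of a retrovirus receptor and phosphate exporter. The members are the 10 annexin genes Anxa1, Anxa2, Anxa3, Anxa4, Anxa5, Anxa6, Anxa7, Anxa9, Anxa11 and Anxa13, taken by name from the 46517 genes counted. All 10 had enough reads to be among the 15382 genes tested. Whole kidneys came from 4 conditional knockout (cKO) mice (libraries KO16, KO18, KO19 and KO20) and 4 Control mice (C10, C11, C13 and C14). The cKO mice were of genotype Xpr1lox/lox-Pax8-rtTA/LC-1, in which the kidney tubule promoter Pax8 drives a doxycycline-activated regulator that turns on Cre, and Cre removes exon 2 of Xpr1. The Control mice were Xpr1lox/lox littermates, which carry the same floxed alleles but neither transgene. Both groups drank doxycycline at 2 mg/ml for 2 weeks, starting at 8 weeks of age. Loss of Xpr1 and presence of the transgenes cannot be told apart in this design. Nor can fewer cells of a type and less RNA per cell be told apart in whole-kidney RNA.

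An annexin has a conserved core of repeated domains that holds the calcium and lipid sites, and a short tail of its own that sets its partners. The proteins organise membrane domains, take part in vesicle traffic and gather at wounds of the plasma membrane. Several are paired with S100 proteins, which are small calcium-binding dimers. In the kidney, annexins are found in tubule epithelium, glomeruli and the cells of the interstitium.

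Xpr1 itself stood at 5.74 (KO16), 26.5 (KO18), 22.0 (KO19) and 12 (KO20) CPM (reads of a gene scaled to a common library size) in cKO kidneys, against 80.2, 126, 108 and 103 CPM in Control kidneys C10, C11, C13 and C14, so each library followed its label. Reads assigned to genes ranged from 20366113 to 25536786 in the cKO libraries and from 24664070 to 26155030 in the Control libraries. The libraries differed in how far their reads leaned to short transcripts. Relative to the Control mean, the tested genes in the shortest sixth by exonic length had a median log2 difference of 1.10 in KO16, -0.28 in KO18, -0.134 in KO19 and 0.557 in KO20, against 0.281 in C10, -0.416 in C11, 0.063 in C13 and 0.104 in C14. KO16 and KO20 also held the least Xpr1. Values without KO16, KO20 or C11 are given beside results that these libraries moved. Without KO16, KO20 and C11 together, KO18 and KO19 are compared with C10, C13 and C14. In that setting 9175 of 15881 tested genes had an adjusted p under 0.05 by edgeR, so passing there sets a gene little apart.

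Promoters of 3 of the 4 annexins that rose (Anxa1, Anxa2 and Anxa5) are shown because the starts of these genes differ in motifs and CpG content; Anxa3, Anxa6 and Anxa13 are named only. The RefSeq table of build GRCm38.p6 held 10 promoter windows for 7 of the members (Anxa1, Anxa2, Anxa4, Anxa5, Anxa7, Anxa9 and Anxa11), each reaching from 250 bases before to 50 bases after a gene's start. They are printed 5′ to 3′ on the gene's strand, at chr19:20390622-20390921 (minus strand) for Anxa1, chr9:69453433-69453732 (plus strand) for Anxa2 and chr3:36475838-36476137 (minus strand) for Anxa5. Capitals mark matches to TATAAA (the TATA box), TGANTCA (the AP-1 motif) and GGGCGG (the GC box), searched on both strands.
Anxa1: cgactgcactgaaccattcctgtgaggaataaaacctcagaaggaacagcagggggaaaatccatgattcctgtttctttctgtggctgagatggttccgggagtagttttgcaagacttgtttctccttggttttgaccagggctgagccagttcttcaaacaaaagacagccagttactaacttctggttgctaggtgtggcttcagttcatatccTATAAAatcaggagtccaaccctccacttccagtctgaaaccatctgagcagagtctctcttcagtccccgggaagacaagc
Anxa2: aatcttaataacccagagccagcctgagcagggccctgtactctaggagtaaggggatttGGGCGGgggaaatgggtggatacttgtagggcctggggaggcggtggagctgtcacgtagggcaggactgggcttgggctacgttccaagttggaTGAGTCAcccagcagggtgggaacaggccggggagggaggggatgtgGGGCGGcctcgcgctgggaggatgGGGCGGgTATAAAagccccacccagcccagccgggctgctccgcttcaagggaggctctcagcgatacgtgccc
Anxa5: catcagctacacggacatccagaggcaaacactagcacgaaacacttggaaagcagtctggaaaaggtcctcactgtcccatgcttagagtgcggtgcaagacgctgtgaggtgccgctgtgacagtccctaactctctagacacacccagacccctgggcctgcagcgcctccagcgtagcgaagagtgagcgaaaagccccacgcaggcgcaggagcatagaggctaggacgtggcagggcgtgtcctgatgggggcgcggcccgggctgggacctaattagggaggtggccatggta

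The Anxa1 window held a TATAAA that begins 32 bases before the start and only 3 CpG dinucleotides. The Anxa2 window held 3 GGGCGG matches, a TATAAA that begins 17 bases before the start and a TGANTCA match that begins 95 bases before it, with 13 CpG dinucleotides. The Anxa5 window held none of the 3 motifs and 16 CpG dinucleotides. Over 32851 RefSeq promoters of the same length, TGANTCA was found in 7.81%, TATAAA in 13.6% and GGGCGG in 35.7%, and the median CpG count was 7. Among the 10 annexin windows TGANTCA was found in 1 (Anxa2), TATAAA in 2 (Anxa1 and Anxa2) and GGGCGG in 5, of which 2 are overlapping windows of Anxa7. The other 4 motifs searched were CCAAT (0 of 10 windows, 37.4% of all promoters), TTCNNNGAA (the STAT motif; 0 of 10, 8.3%), TGACGTCA (the cAMP response element; 0 of 10, 1.79%) and GGAATG (the TEAD motif; 1 of 10, in Anxa1, 14.7%). These matches describe the letters in the windows and were not tested for any function.

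In cKO kidneys 4 annexins rose and 1 fell. Anxa3, Anxa2, Anxa5 and Anxa1 rose between 2.16-fold and 6.68-fold, Anxa13 fell to 0.0805 of its Control level, and the other 5 did not pass the test. The test was edgeR's quasi-likelihood F test over all 15382 genes, with Benjamini-Hochberg adjusted p-values and a threshold of 0.05. Against the 4 of 10 annexins that rose, 7.5% of all tested genes rose, and against the 1 that fell, 6.61% of all tested genes fell. The median log2 fold change was 0.653 over the 10 annexins and 0.00664 over all tested genes. The members were chosen with earlier results of these data known, so these shares are no test of the family. In either direction 2170 genes, or 14.1% of those tested, changed, and 53.2% of these calls were higher in cKO kidneys. The share of higher calls was 63.9% of 2286 calls with upper-quartile factors and 81.2% of 2922 calls with library totals alone. The last scaling moved the median log2 fold change of all tested genes to 0.344 and that of the annexins to 0.958. CPM of the groups did not overlap for 6 annexins (the 5 that changed and Anxa6), and for 22.8% of all tested genes.

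**Figure D1:**
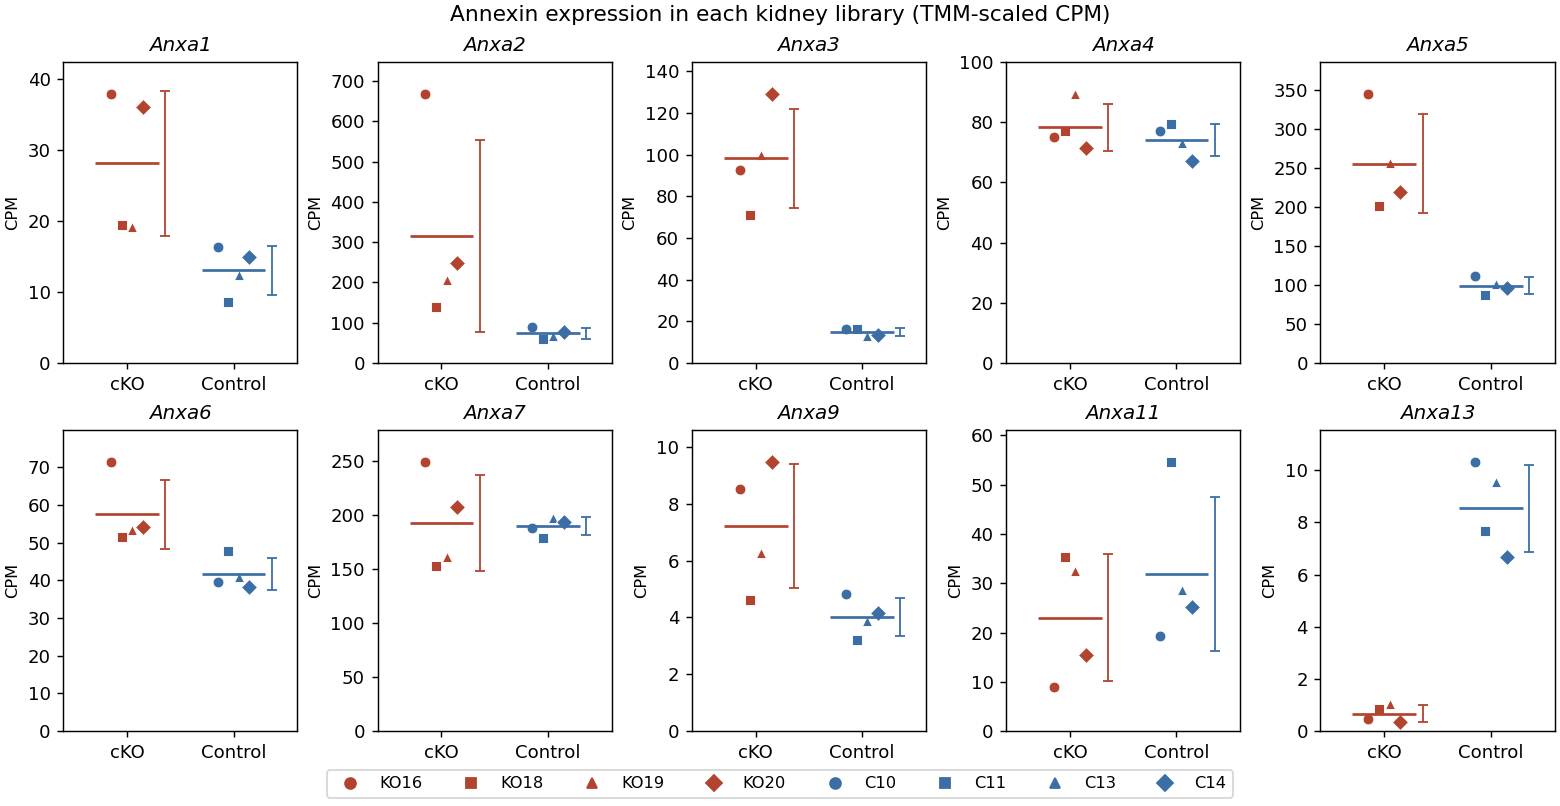
Expression of the 10 annexins in each library in CPM scaled by TMM factors (y axis, linear from 0), cKO left and Control right in each panel. Symbols are libraries, lines are group means and bars are ± SD (n = 4 mice each); Anxa3 and Anxa13 show the widest separation, with the 4 cKO libraries of Anxa3 at 71.2 CPM or more and the 4 of Anxa13 at 1.03 CPM or less.

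Anxa3 had the largest rise of the family. This annexin is abundant in neutrophils and has also been described in kidney epithelium. Its gene (ENSMUSG00000029484) lies on chromosome 5 (plus strand, bases 96793339 to 96845966) in GRCm38. It stood at 92.8 (KO16), 71.2 (KO18), 100 (KO19) and 129 (KO20) CPM in cKO kidneys, against 16.3 (C10), 16.4 (C11), 12.9 (C13) and 13.2 (C14) CPM in Control kidneys. The lowest cKO library was thus 4.34 times the highest Control library. The means were 98.1 ± 23.7 CPM in cKO and 14.7 ± 1.92 CPM in Control kidneys (± SD over 4 mice), and the log2 fold change was 2.74 (SE 0.24, adjusted p = 0.000401 by edgeR). This log2 fold change stood at percentile 98.9 among the tested genes. The call held in all 18 alternatives, with log2 fold changes of 2.54 to 3.06.

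Anxa2 binds S100a10 in a complex that sits under the plasma membrane and, at the cell surface, docks plasminogen and its tissue activator. It lies on chromosome 9 (plus strand, bases 69453620 to 69491795). The cKO libraries held 667 (KO16), 140 (KO18), 206 (KO19) and 248 (KO20) CPM, against 89.9 (C10), 58.7 (C11), 68.0 (C13) and 77.3 (C14) CPM in the Control libraries. KO16 stood far above the other cKO kidneys, which still all exceeded every Control kidney. The log2 fold change was 2.10 (SE 0.47, adjusted p = 0.0171 by edgeR), on means of 315 ± 239 CPM in cKO and 73.5 ± 13.3 CPM in Control kidneys. Without KO16 the log2 fold change was 1.43 (adjusted p = 0.00598), and without KO16, KO20 and C11 it was 1.10 (adjusted p = 0.000415). The call was lost without C13 (adjusted p = 0.0638) or C14 (adjusted p = 0.0549).

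Anxa5 is the annexin used in the laboratory to stain phosphatidylserine on dying cells, and it forms protective lattices on membranes. Its gene lies on chromosome 3 (minus strand, bases 36448923 to 36475894). It stood at 345 (KO16), 202 (KO18), 257 (KO19) and 220 (KO20) CPM in cKO kidneys, against 112 (C10), 86.7 (C11), 102 (C13) and 96.5 (C14) CPM in Control kidneys. No cKO library reached down to the Control range, and KO16 was again the highest. The log2 fold change was 1.36 (SE 0.23, adjusted p = 0.0049 by edgeR), with means of 256 ± 63.9 CPM in cKO and 99.4 ± 10.7 CPM in Control kidneys. The call held in all 18 alternatives, with log2 fold changes of 1.11 to 1.68.

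Anxa1, an anti-inflammatory protein induced by glucocorticoids and a ligand of formyl peptide receptors, had the smallest of the 4 rises. It lies on chromosome 19 (minus strand, bases 20373428 to 20390944). It stood at 37.9 (KO16), 19.5 (KO18), 19.2 (KO19) and 36.1 (KO20) CPM in cKO kidneys, against 16.4 (C10), 8.54 (C11), 12.4 (C13) and 14.9 (C14) CPM in Control kidneys. The cKO libraries fell into a higher pair, KO16 and KO20, and a lower pair only 1.17 times the highest Control library. The log2 fold change was 1.11 (SE 0.32, adjusted p = 0.0484 by edgeR). The call was lost in 10 of 18 alternatives, with adjusted p-values up to 0.2, which was reached without KO16 and KO20 (log2 fold change 0.56). Without KO16, KO20 and C11 the log2 fold change was 0.37 (adjusted p = 0.0382). It was lost on leaving out KO16 (0.0813), KO20 (0.127), C10 (0.0744), C11 (0.0953), C13 (0.137) or C14 (0.104) alone.

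Anxa13 was the one annexin that fell. It is a lipid-anchored annexin of intestinal and kidney epithelium, studied for apical membrane traffic in dog kidney cells. Its gene (ENSMUSG00000055114) lies on chromosome 15 (minus strand, bases 58341471 to 58389244). It stood at 0.478 (KO16), 0.832 (KO18), 1.03 (KO19) and 0.337 (KO20) CPM in cKO kidneys, from 8 to 34 reads per library. The Control kidneys held 10.3 (C10), 7.66 (C11), 9.56 (C13) and 6.69 (C14) CPM, from 151 to 220 reads per library. The highest cKO library was 0.154 of the lowest Control library. The means were 0.669 ± 0.318 CPM in cKO and 8.55 ± 1.66 CPM in Control kidneys, and the log2 fold change was -3.63 (SE 0.37, adjusted p = 0.000671 by edgeR). This log2 fold change stood at percentile 0.332 among the tested genes. The call held in all 18 alternatives, with log2 fold changes of -3.92 to -3.20.

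**Figure D2:**
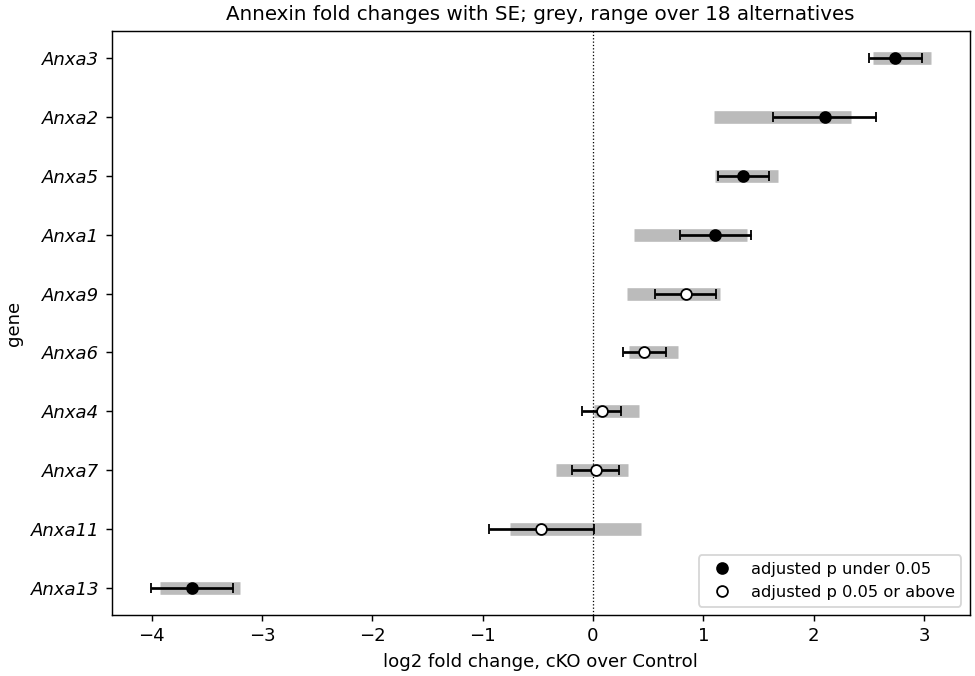
Log2 fold change of each annexin, cKO over Control (x axis), with its SE as a bar and the range over the 18 alternatives in grey. Filled points had an adjusted p under 0.05 (Anxa3, Anxa2, Anxa5, Anxa1 and Anxa13); the grey ranges of Anxa7 and Anxa11 cross 0.

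Anxa9 and Anxa6 were higher on average in cKO kidneys without passing the test. Anxa9 is an atypical annexin whose human form lacks working calcium sites in its core. It stood at 8.5 (KO16), 4.61 (KO18), 6.27 (KO19) and 9.45 (KO20) CPM in cKO kidneys, against 4.82 (C10), 3.21 (C11), 3.87 (C13) and 4.17 (C14) CPM in Control kidneys. KO18 lay below C10, and the log2 fold change was 0.84 (SE 0.28, adjusted p = 0.0768 by edgeR). It passed with DESeq2 (adjusted p = 0.049), with library totals alone (0.0119), with the length trend removed (0.0467) and without KO18 (0.0374), over a range of 0.0119 to 0.256 in 18 alternatives.

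Anxa6, which carries a duplicated core and works in endosomes and cholesterol traffic, stood at 71.3 (KO16), 51.4 (KO18), 53.3 (KO19) and 54.1 (KO20) CPM in cKO kidneys. The Control kidneys held 39.7 (C10), 47.8 (C11), 40.9 (C13) and 38.2 (C14) CPM. The groups did not overlap, but the lowest cKO library was only 1.07 times the highest Control library. The log2 fold change was 0.46 (SE 0.19, adjusted p = 0.157 by edgeR). It passed with library totals alone (adjusted p = 0.0253) and without KO16, KO20 and C11 (adjusted p = 0.0122, log2 fold change 0.36).

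Anxa4, an annexin of secretory and absorptive epithelia, gave closely placed values in both groups. It stood at 75.2 (KO16), 77.2 (KO18), 89.3 (KO19) and 71.5 (KO20) CPM in cKO kidneys, against 77.1 (C10), 79.4 (C11), 73.0 (C13) and 67.1 (C14) CPM in Control kidneys. The log2 fold change was 0.08 (SE 0.17, adjusted p = 0.825 by edgeR), and a coefficient of variation of 9.84% in cKO and 7.31% in Control kidneys made it one of the steadiest members.

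Anxa7 (synexin), which drives calcium-dependent membrane fusion and binds sorcin, had similar group means and a cKO spread that leaned to KO16 and KO20. It stood at 249 (KO16), 153 (KO18), 161 (KO19) and 208 (KO20) CPM in cKO kidneys, against 188 (C10), 179 (C11), 198 (C13) and 194 (C14) CPM in Control kidneys. KO18 and KO19 lay below all Control libraries, and KO16 and KO20 lay above all of them. The log2 fold change was 0.02 (SE 0.21, adjusted p = 0.961 by edgeR). Without KO16, KO20 and C11 it was -0.34 (adjusted p = 0.0147), so no direction is given for this gene.

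Anxa11 tethers RNA granules to lysosomes in human cells and binds S100a6 and Pdcd6. It stood at 8.98 (KO16), 35.3 (KO18), 32.5 (KO19) and 15.4 (KO20) CPM in cKO kidneys, against 19.3 (C10), 54.5 (C11), 28.6 (C13) and 25.2 (C14) CPM in Control kidneys. The groups interleaved, and the log2 fold change was -0.47 (SE 0.47, adjusted p = 0.586 by edgeR). Without KO16, KO20 and C11 the log2 fold change was 0.44 (adjusted p = 0.0358), so no direction is given for this gene either. Of the 2684 stretches of 50 bases in its longest transcript, 25.3% also occur in transcripts of Anxa11os, Gm2260 or Gm2274, so reads from that part may not have been assigned to it. For the other members the share was 2.45% or less.

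The libraries' order for Anxa11 was exactly the reverse of their order in the lean to short transcripts, from KO16 and KO20 at one end to KO18 and C11 at the other. Anxa11 is not a long gene by exonic length, with 4135 bases against a median of 4152 over all tested genes. Anxa7, described below, has 5991. The cause of these relations was not tested. Among the 4 annexins whose groups overlap, log2 CPM of Anxa11 had Pearson's r = -0.986 with the lean over 8 libraries (exact permutation p = 2.48e-05, adjusted p over the 4 relations 9.92e-05) and Spearman's rho = -1 (exact p = 4.96e-05, the smallest that rho can give over 8 libraries in a two-sided test; adjusted p = 0.000198). Without the 2 libraries farthest from the median, KO16 and C11, r was -0.983. Anxa7 went the other way (r = 0.891, exact permutation p = 0.00357, adjusted p = 0.00714; rho = 0.833, p = 0.0154, adjusted p = 0.0308; r = 0.874 without KO16 and C11). Anxa9 had r = 0.769 (exact permutation p = 0.0244, adjusted p = 0.0325; rho = 0.714, p = 0.0576, adjusted p = 0.0768; r = 0.553 without KO16 and C11). Anxa4 had r = -0.35 (exact permutation p = 0.388, adjusted p = 0.388; rho = -0.575, p = 0.143, adjusted p = 0.143; r = -0.469 without KO16 and C11). Removing each library's length trend left the log2 fold changes of Anxa11 at -0.49 and of Anxa7 at 0.20, neither past the test. That removal depends only on a gene's exonic length. With a length near the median, Anxa11 could be moved little by it, so its value there is no check on the relation. Each group alone holds 4 libraries, which is too few for a correlation, but the order of Anxa11 was reversed within the cKO and within the Control libraries too. The permutations ran over all 8 libraries without regard to group, so the p-values do not separate a relation to the lean from a difference between groups. The lean was measured on these same libraries. The share of all tested genes that follow it as closely was not computed, so the relations are not shown to be particular to these annexins. The 6 annexins whose groups did not overlap were not related to the lean in this way. Of these, only Anxa2 had the order of the lean within both groups (KO16, KO20, KO19, KO18 and C10, C14, C13, C11, from highest to lowest). Anxa1 had it within the Control libraries only and Anxa6 within the cKO libraries only. Whether the lean bears on their fold changes was not tested.

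**Figure D3:**
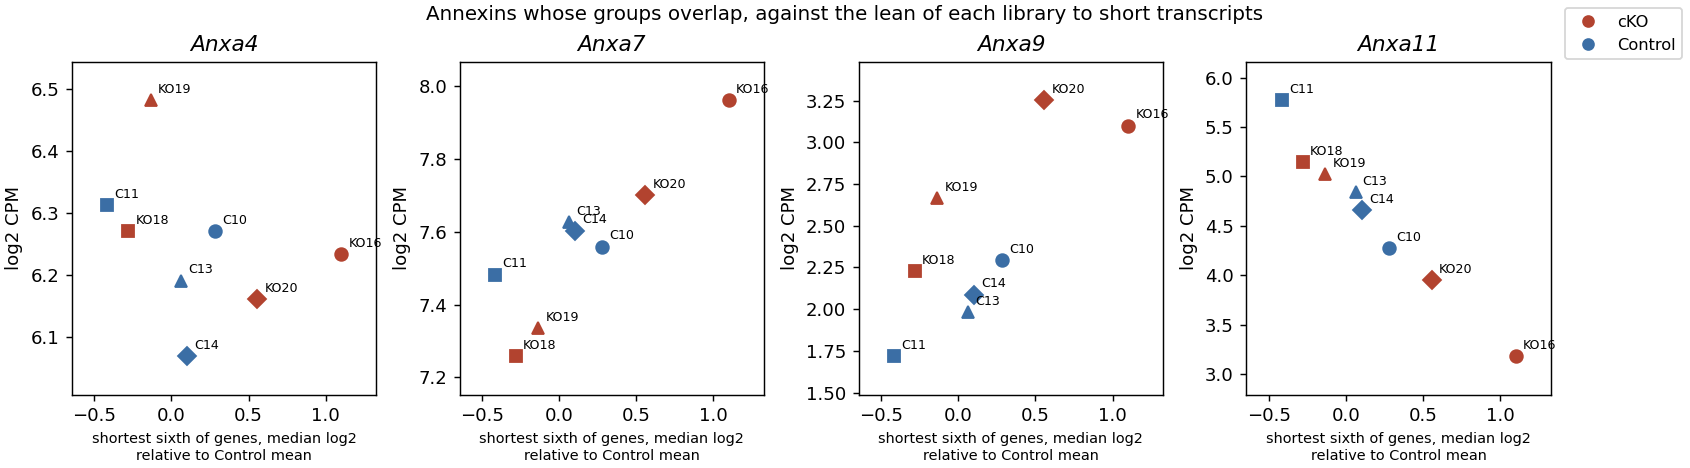
Log2 CPM (y axis) of the 4 annexins whose groups overlap, against the median log2 level of the shortest sixth of tested genes relative to the Control mean (x axis), 1 point per library. Anxa11 falls steadily across all 8 libraries (r = -0.986), with cKO and Control libraries mixed along the line.

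Levels between genes were compared per length, as CPM over kilobases of exonic sequence (RPKM). Anxa5 was the highest annexin in both groups, at 144 ± 36 RPKM in cKO and 55.9 ± 6.04 RPKM in Control kidneys (± SD over 4 mice). In cKO kidneys Anxa2 (84.4 ± 64.0 RPKM), Anxa7 (32.2 ± 7.44 RPKM) and Anxa3 (26.9 ± 6.5 RPKM) followed, whereas in Control kidneys Anxa7 (31.7 ± 1.39 RPKM) and Anxa2 (19.7 ± 3.57 RPKM) did. Anxa3 held place 4 of 10 in cKO and place 9 in Control kidneys, and Anxa13 held place 10 in cKO and place 7 in Control kidneys. In cKO kidneys the only neighbours in the order whose ranges did not overlap were Anxa4 (15.4 to 19.2 RPKM) above Anxa1 (6.6 to 13 RPKM), and Anxa9 (2.22 to 4.56 RPKM) above Anxa13 (0.25 to 0.764 RPKM). In Control kidneys the neighbours that did not overlap were Anxa5 above Anxa7, Anxa7 above Anxa2, and Anxa3 (3.53 to 4.50 RPKM) above Anxa9 (1.55 to 2.33 RPKM). Some neighbours with overlapping ranges still kept their order in 4 of 4 libraries. These were Anxa5 above Anxa2, Anxa2 above Anxa7 and Anxa3 above Anxa6 in cKO kidneys, and Anxa4 above Anxa6 and Anxa6 above Anxa11 in Control kidneys. The other overlapping neighbours kept it in 2 or 3 libraries. With the length of the longest transcript in place of all exons, Anxa7 came above Anxa5 in Control kidneys (65.4 and 57.4 RPKM), and Anxa3 held place 7 and Anxa13 place 9 there. In cKO kidneys that length put Anxa4 at place 5 and Anxa6 at place 6 and left the other places as they were.

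Summed over the 10 genes, the annexin pool was 500.3 (KO16), 248.3 (KO18), 309.7 (KO19) and 314.7 (KO20) RPKM in cKO kidneys, against 173.7 (C10), 155.6 (C11), 161.8 (C13) and 156.8 (C14) RPKM in Control kidneys. Every cKO kidney held a larger pool than any Control kidney, and KO16 held the largest. Anxa5 made up 42.6 ± 4.14% of the pool in cKO and 34.5 ± 2.19% in Control kidneys. Anxa2 made up 22.4 ± 9.20% in cKO and 12.1 ± 1.74% in Control kidneys. Anxa3 made up 8.26 ± 2.53% in cKO and 2.49 ± 0.314% in Control kidneys. Anxa7 made up 9.58 ± 1.29% in cKO and 19.6 ± 1.19% in Control kidneys, while its own level differed little. Anxa13 made up 0.161 ± 0.0996% in cKO and 3.90 ± 0.597% in Control kidneys. The shares were not tested, since a rise of any member lowers the shares of the rest.

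**Figure D4:**
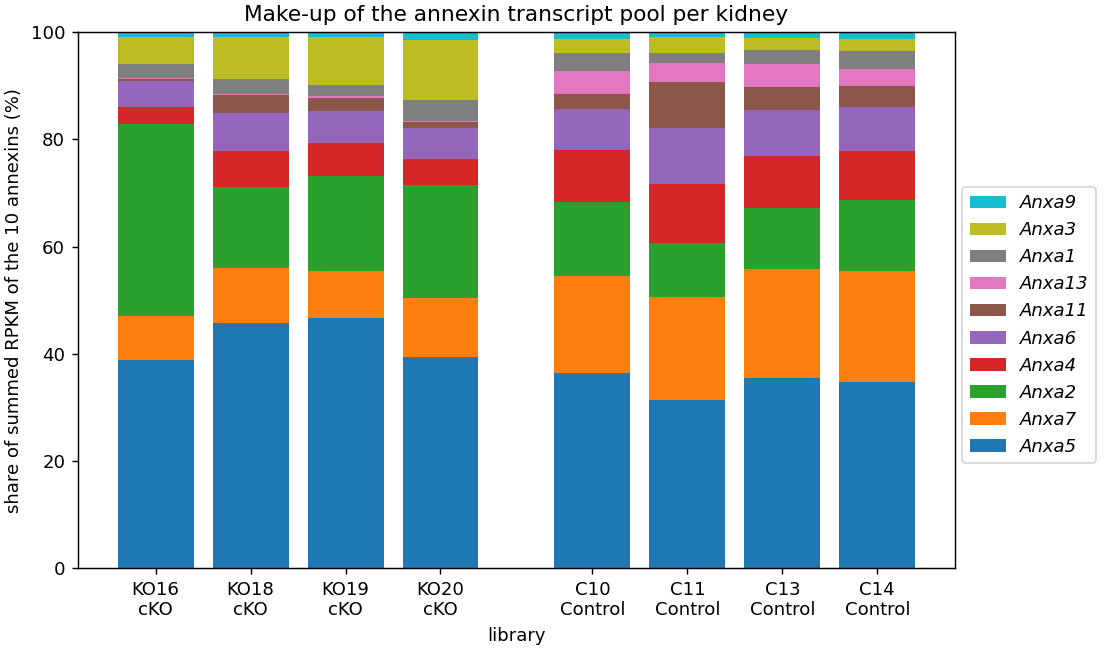
Share of each annexin in the summed RPKM of the 10 genes (y axis, percent), 1 bar per library, cKO left and Control right. Anxa5 fills 38.8% to 46.7% of the cKO bars and 31.4% to 36.4% of the Control bars, and the Anxa13 band seen in Control is nearly missing in cKO.

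Binding partners of the annexins and genes of related families and pathways were taken from 6 lists. Of the 66 list members tested 19 changed, 16 higher and 3 lower. These are 28.8% called, 24.2% higher and 4.55% lower, against 14.1%, 7.5% and 6.61% of all tested genes. The lists were chosen with earlier results of these data known and no set test was run, so the difference in shares is not read as a result. Of 9 binding partners 2 rose and 7 did not pass, with a median log2 fold change of 1.23. DESeq2 put 5 of them higher and limma-voom 2. S100a6, a partner of Anxa2 and Anxa11, stood at 902 (KO16), 129 (KO18), 165 (KO19) and 481 (KO20) CPM in cKO kidneys, against 35.5, 17.3, 20.9 and 36.7 CPM in C10, C11, C13 and C14 (log2 fold change 3.92, SE 0.66, adjusted p = 0.00499). S100a11, the partner of Anxa1, averaged 234 ± 95.0 CPM in cKO and 63.6 ± 9.96 CPM in Control kidneys (log2 fold change 1.88, SE 0.30, adjusted p = 0.00432). Both calls held in all 18 alternatives, and without KO16, KO20 and C11 the log2 fold changes were 2.21 for S100a6 and 1.24 for S100a11. S100a6 had 3.23 without KO16 alone. S100a10, the partner of Anxa2, stood at 1360 (KO16), 167 (KO18), 211 (KO19) and 510 (KO20) CPM in cKO kidneys, against 177 (C10), 55.8 (C11), 116 (C13) and 124 (C14) CPM in Control kidneys. KO18 lay below C10 for this gene, and the log2 fold change of 2.25 (SE 0.67) did not pass (adjusted p = 0.0555).

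The remaining partners did not pass. S100a4 had 2.18 as its log2 fold change (adjusted p = 0.0631), S100a1 1.23 (0.239), and Pla2g4a, the cytosolic phospholipase that annexins can inhibit, 0.69 (0.0693). The giant scaffold gene Ahnak, which binds the complex of Anxa2 and S100a10, had 0.52 (adjusted p = 0.459). Sri (sorcin) had 0.69 (adjusted p = 0.255), and Pdcd6 (the calcium sensor ALG-2) had 0.34 (adjusted p = 0.581).

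Plasminogen activation, which Anxa2 assists at the cell surface, had 4 of 7 tested genes higher, 1 lower and 2 that did not pass (median log2 fold change 1.54, 9 genes listed). Plaur, the urokinase receptor, averaged 35.1 ± 11.8 CPM in cKO and 4.83 ± 0.613 CPM in Control kidneys (log2 fold change 2.86, SE 0.29, adjusted p = 0.000671). Serpine2, an inhibitor of serine proteases, rose too (log2 fold change 2.05, adjusted p = 0.00397). Plat, the tissue activator that Anxa2 binds, rose by 1.54 (SE 0.42, adjusted p = 0.0391), a call lost in 6 of 18 alternatives (0.084 without KO20, 0.102 without C10, 0.12 without C13 and 0.117 without C14, and 0.0776 without KO16 and KO20, where the log2 fold change was 0.715). Plau, the urokinase gene, showed a log2 difference of 0.13 (adjusted p = 0.74). Serpinf2, the plasmin inhibitor, fell to 46.7 ± 13.1 CPM in cKO kidneys, against 362 ± 26.9 CPM in Control kidneys (log2 fold change -2.95, adjusted p = 0.000401).

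Other proteins that bind membranes in a calcium-dependent way, the ferlins and copines, had 4 of 8 tested genes higher, 1 lower and 3 that did not pass (median log2 fold change 1.09, 15 genes listed). Myof (myoferlin) averaged 76.1 ± 39.6 CPM in cKO and 15.9 ± 11.9 CPM in Control kidneys (log2 fold change 2.26, adjusted p = 0.0247), a call lost without KO19 (0.0547), C10 (0.0686), C13 (0.0848) or C14 (0.0823). Without C11, its highest Control library, the log2 fold change of Myof was 2.93, and without KO16, KO20 and C11 it was 3.41. The copine genes Cpne8 (log2 fold change 1.42, adjusted p = 0.00608), Cpne2 (1.07, 0.0106) and Cpne7 (1.14, 0.0227) rose. The call of Cpne2 was lost without C13 (0.0518), and that of Cpne7 without KO19 (0.0596), C10 (0.0751), C13 (0.0888) or C14 (0.0884). Cpne4, named after its values were seen as the only lower gene of the list, fell by 0.85 (adjusted p = 0.038), a call lost in 11 of 18 alternatives with adjusted p-values up to 0.149.

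Of 13 tested genes of plasma membrane repair 3 rose and 10 did not pass (median log2 fold change 0.362), against 7.5% of all tested genes that rose. Cavin1, a coat protein of caveolae, averaged 52.3 ± 3.14 CPM in cKO and 20.6 ± 3.59 CPM in Control kidneys (log2 fold change 1.35, adjusted p = 0.00266). The calpain genes Capn2 (0.83, adjusted p = 0.0182) and Capn1 (0.82, 0.0483) rose, with calls lost in 5 and in 7 of 18 alternatives. Capn2 reached 0.0525 without KO19, 0.0744 without C10, 0.0844 without C13 and 0.0858 without C14. Capn1 reached 0.104 without KO18, 0.101 without KO19, 0.0566 without KO20, 0.144 without C10, 0.163 without C13 and 0.157 without C14.

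Phosphatidylserine, the lipid that Anxa5 binds, is exposed by scramblases and read by clearance receptors, and 3 of 19 tested genes of that list rose, 1 fell and 15 did not pass (median log2 fold change -0.14). Of all tested genes 14.1% changed, 7.5% higher and 6.61% lower. No test of a whole list was run, so the count is not read as a result about the list. Havcr1, a receptor of phosphatidylserine on injured tubule cells, rose by 4.96 on the log2 scale (adjusted p = 0.0122), and Mfge8, a bridging protein, by 1.82 (0.0075). Havcr1 had 6.84 without C11, and Mfge8 had 1.19 without KO16 and KO20. Pros1, another bridging protein, rose by 0.91 (adjusted p = 0.0458), a call lost in 9 of 18 alternatives with adjusted p-values up to 0.155 (without C13). It was also lost without KO18 (0.0836), KO19 (0.0779), KO20 (0.0747), C10 (0.106), C11 (0.061) or C14 (0.132). Stab2, a receptor of endothelium, fell to 0.906 ± 0.437 CPM in cKO kidneys, against 7.30 ± 2.53 CPM in Control kidneys (log2 fold change -2.99, adjusted p = 0.00177). The list of formyl peptide receptors and glucocorticoid-responsive genes had 0 of 10 tested genes past the edgeR test in either direction, with a median of -0.28. At an unadjusted p under 0.05 there were 3 lower genes and 0 higher, DESeq2 called 1 lower, and limma-voom called 0. Fpr2, the Anxa1 receptor, had 35 reads over the cKO libraries and 10 over the Control libraries and was not tested.

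**Figure D5:**
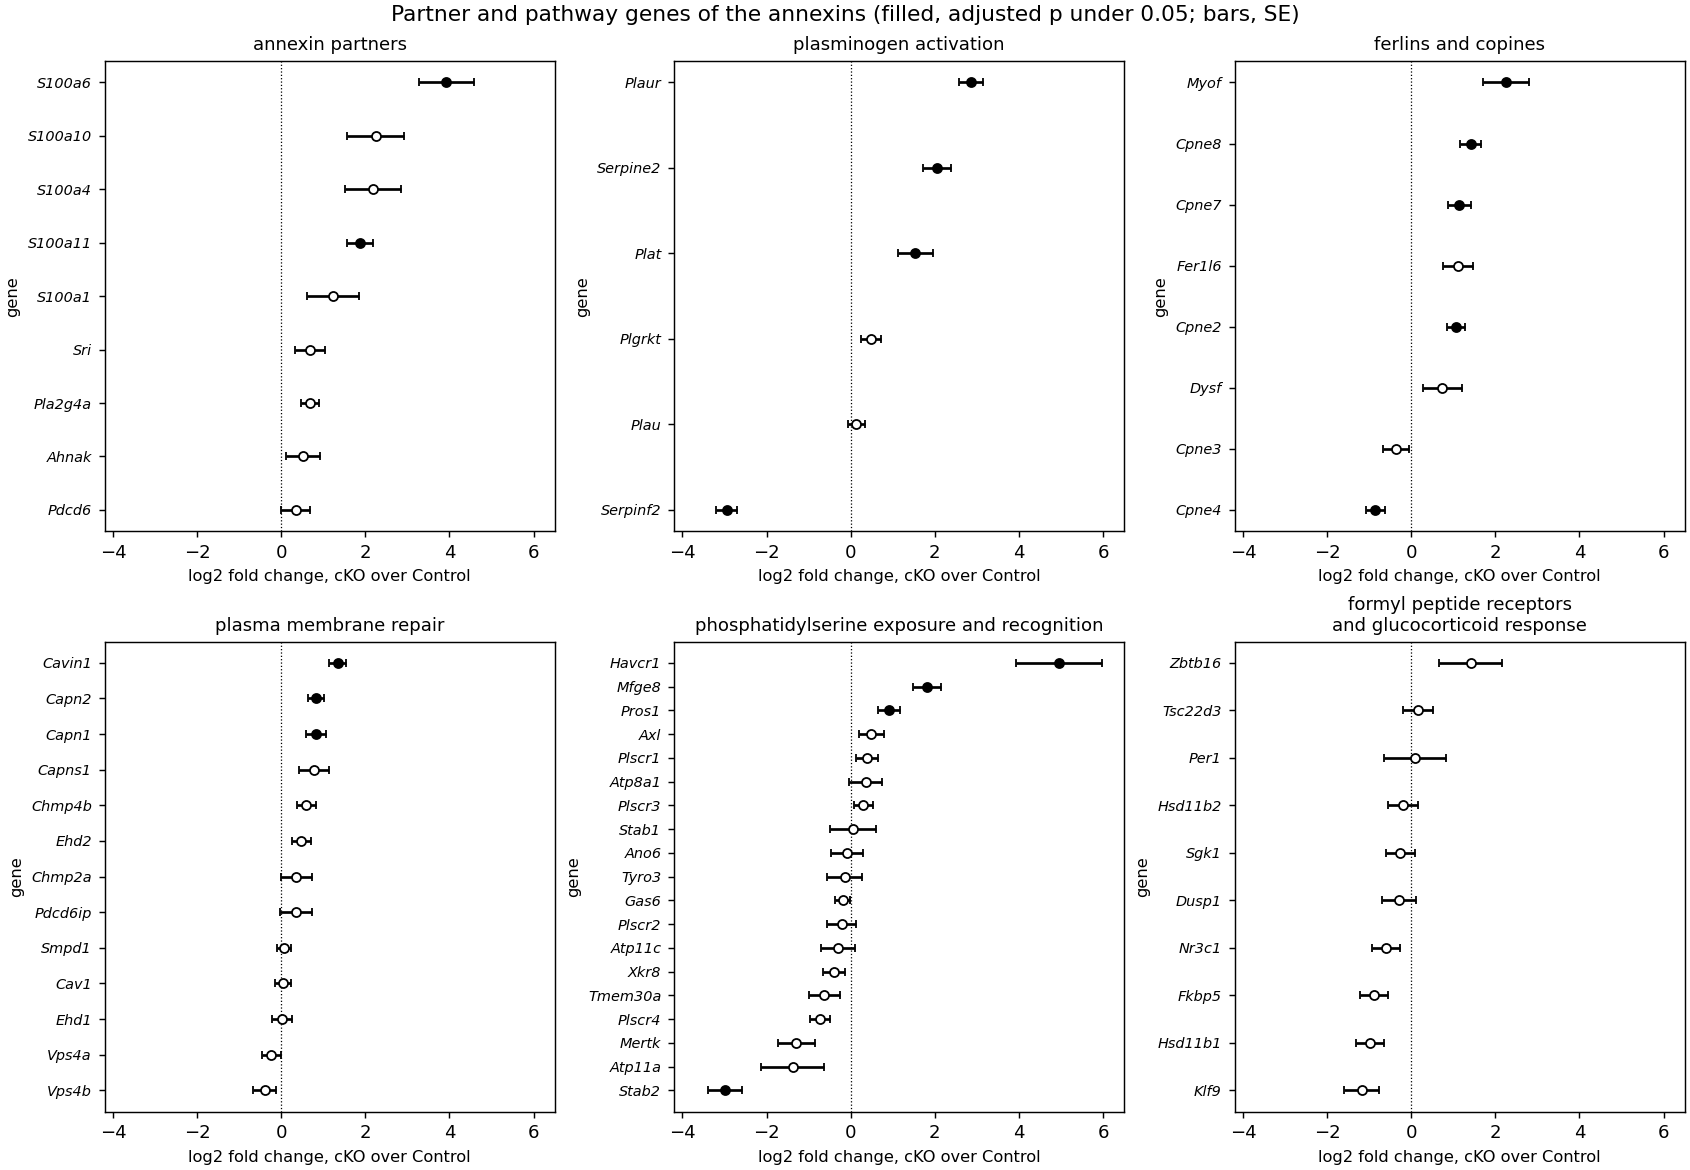
Log2 fold changes, cKO over Control (x axis), of tested genes of the 6 lists, with SE as bars. Filled points had an adjusted p under 0.05; they include S100a6 at 3.92 and Plaur at 2.86 on the right and Serpinf2 at -2.95 on the left.

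Markers of some cell types differed between the groups too, and their relation to the annexins was not tested. Their counts by edgeR stand beside 7.5% of all tested genes that rose and 6.61% that fell. Without KO16 and KO20 together, 2645 of 15967 tested genes changed. In the setting without KO16, KO20 and C11, 9175 of 15881 did, so a call there sets a marker little apart. DESeq2 called 3255 genes in either direction, and limma-voom 2095 of 15382. DESeq2 was given 26115 genes with any read, a number that includes any gene it left without an adjusted p. At an unadjusted p under 0.05 by edgeR, at least 3797 of 15382 tested genes passed in either direction, since Anxa6 (unadjusted p = 0.0387) held rank 3797. All 6 macrophage markers rose, and their summed level was 1010 (KO16), 221 (KO18), 240 (KO19) and 724 (KO20) CPM in cKO kidneys, against 110 (C10), 54.3 (C11), 86.8 (C13) and 93.2 (C14) CPM in Control kidneys. Their median log2 fold change was 2.14, and it was 1.25 without KO16 and KO20 and 1.11 without KO16, KO20 and C11, with all 6 still called in both. Without C13 or without C14 the call of 1 of the 6 was lost (adjusted p = 0.0573 and 0.0528). Of 5 fibroblast markers 2 rose, with sums of 283 to 410 CPM in cKO and 118 to 189 CPM in Control kidneys. Without C13 1 fibroblast marker was called, without C11 4 were, and without KO16, KO20 and C11 all 5 were.

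KO16 and KO20 were the highest cKO libraries for Anxa1 and for the macrophage sum, but also for the sums of several other lists. Adipocyte markers summed to 43.6 (KO16), 1.6 (KO18), 14.6 (KO19) and 41.6 (KO20) CPM in cKO kidneys, against 1.13 to 8.29 CPM in Control kidneys. Urothelial markers summed to 34.7, 12.2, 17.0 and 27.3 CPM in the same cKO libraries, against 5.45 to 18.6 CPM in Control kidneys. T cell markers (1.58 to 8.34 CPM in cKO, 0.922 to 1.88 CPM in Control kidneys), neutrophil markers (2 of 5 with enough reads to test; 0.832 to 6.85 and 0.722 to 5.40 CPM), intercalated cell markers (100 to 224 and 99.4 to 119 CPM) and principal cell markers (275 to 445 and 227 to 247 CPM) were likewise highest in KO16 and KO20 among the cKO libraries. These are also the libraries whose reads leaned most to short transcripts. By edgeR 0 adipocyte, urothelial, T cell, neutrophil and intercalated cell markers passed. At an unadjusted p under 0.05 there were 2 adipocyte and 1 T cell marker higher and 1 intercalated cell marker in each direction. DESeq2 called 1 adipocyte marker higher, and limma-voom called 0 in these lists. Of 4 principal cell markers 1 rose, a call lost without C13 (adjusted p = 0.0527), and 1 fell, a call lost in 6 of 18 alternatives (adjusted p up to 0.11), among them those without KO19 (0.0634), KO20 (0.0901), C13 (0.0594) or C14 (0.053).

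Of 7 proximal tubule markers 6 fell. Their sum was 1290 (KO16), 2160 (KO18), 1380 (KO19) and 618 (KO20) CPM in cKO kidneys, against 4740 (C10), 12500 (C11), 5760 (C13) and 5350 (C14) CPM in Control kidneys. C11 stood far above the other Control libraries and KO20 below the other cKO libraries, and the groups did not overlap with or without them. Among cKO kidneys Anxa13 ran from KO19 (1.03 CPM, 34 reads) over KO18 (0.832 CPM, 26 reads) and KO16 (0.478 CPM) to KO20 (0.337 CPM). The tubule sum had the same order there except that KO18 stood above KO19. Among Control kidneys Anxa13 was highest in C10 (10.3 CPM), where the tubule sum was lowest. A link between Anxa13 and these markers was not tested. The calls of 2 of the 6 were each lost in 4 of 18 alternatives (adjusted p up to 0.0784 and 0.0821). Without KO19, without KO20 or without both KO16 and KO20, 4 of the 7 were called. Without KO16, KO20 and C11 all 7 were, where 9175 of 15881 tested genes changed.

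The endothelial list (4 genes) summed to 161 to 186 CPM in cKO and 221 to 276 CPM in Control kidneys, and 0 of its genes passed by edgeR (2 lower at an unadjusted p under 0.05, 2 lower by DESeq2, 0 by limma-voom). Without KO16, KO20 and C11, 3 were lower, where 4486 of 15881 tested genes were lower. The lists of the thick ascending limb, distal convoluted tubule, podocytes and B cells had 0 genes past the edgeR test over all 8 libraries. At an unadjusted p under 0.05, 1 podocyte marker was lower. No marker in these lists was at 0 reads over a whole group. The part of these cell types in the annexin values was not tested.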

How the data were processed

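Total RNA (500 ng) of whole kidneys, 1 mouse per library, was made into stranded mRNA libraries, per the labels' protocols. The deposited values are read counts per gene that the authors made. The submitters' processing notes name cutadapt 1.3, STAR 2.4.0g, HTSeq 0.6.1 and GRCm38; the sources used here give neither the strand setting nor the annotation release of the counting. Lines that name no gene held 39.7% to 56.2% of reads and were left out. No library pair of a group agreed within sampling noise (chi-square per degree of freedom at least 7.48).

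Counts were tested with edgeR 4.0.16 in R 4.3.3: TMM factors, filterByExpr (minimum count 10, minimum total 15), quasi-likelihood F test over 15382 genes, Benjamini-Hochberg adjustment with a threshold of 0.05. The SE is the absolute log2 fold change over the square root of F. The common biological coefficient of variation was 0.386. Of the identifiers, 46005 matched GENCODE vM21, which gave positions and exonic lengths, and 512 did not. CPM used TMM-scaled totals. Alternatives used DESeq2 1.42.0, limma 3.58.1 (voom), other scalings and filters, removal of each library's length trend, and fewer libraries.

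The members and lists were chosen with earlier results of these data known. All annexins are named; from each list up to 4 called genes with the smallest p and the direct annexin partners are named, and markers appear as sums and counts. The counts of the plasminogen list include 1 gene that is not reported here.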

Additional observations from a re-analysis of the deposited data

Results flagged for a closer look

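Among 48 groups of 4 libraries checked for a library far from the other 3, 2 stood out, and chance marks about 1 in 20 such groups. Anxa6 stood at 71.3 CPM in KO16, while the other cKO libraries lay between 51.4 and 54.1 CPM, so the gap made up 0.865 of the group's range. Ahnak stood at 115 CPM in C11, while the other Control libraries lay between 36.9 and 48.6 CPM, a gap of 0.85 of the range.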

How the results depend on the processing

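Over 18 alternatives, the calls of Anxa3, Anxa5 and Anxa13 held, and Anxa4 passed in none of them (lowest adjusted p = 0.215, edgeR, DESeq2 or limma). The direction of Anxa7 turned with limma-voom (log2 fold change -0.00361), with no filter (-0.018), without KO16 and KO20 (-0.278), without KO16, KO20 and C11 (-0.338), without KO16 (-0.123) and without C11 (-0.0117), and it spanned -0.123 to 0.114 when 1 library was left out. Anxa11 turned to 0.082 without KO16 and KO20 and to 0.437 without KO16, KO20 and C11; the cause was not tested. Library totals alone gave 2374 genes higher and 548 lower, against 1154 and 1016 with TMM factors, and 25 list genes higher against 16. DESeq2 gave 1756 genes higher and 7 list genes lower, and removal of the length trend gave 6 list genes lower, against 3. Without KO16, KO20 and C11, 9175 of 15881 tested genes changed (4689 higher, 4486 lower), among them 2110 of the original 2170. In that setting 8 annexins (2 lower) and 49 list genes (32 higher, 17 lower) changed, where most tested genes did too. Leaving out 1 library gave 1106 (without C13) to 2697 (without KO16) genes changed, 531 to 1363 higher and 566 to 1334 lower. It gave 3 to 6 annexins changed and 2 to 5 higher, and 11 to 24 list genes changed, 9 to 18 higher and 2 to 6 lower. No paired analysis was possible because the animals' numbers are not shared between the groups. Anxa13 rests on 8 to 34 reads in each cKO library, which limits the precision of its fold change.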
